A study of Mus musculus with 56 samples.

Results

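The comparison is of liver mRNA between mice homozygous for leucine (LL, Gckr-446L) and mice homozygous for proline (PP, Gckr-446P) at position 446 of GKRP, the regulatory protein of glucokinase, neither of them given a glucokinase activator (GKA). Its members are 19 of the 56 livers sequenced, 10 LL and 9 PP, chosen by their labels. Another PP liver, that of mouse 7, was left out here and kept in an alternative. All the mice were males of 1 knock-in line on a B6N background and had been fed a diet rich in fat and sugar (HFHSD, 45% of energy as fat, with 10% glucose and 5% fructose in the water) for 20 weeks. The PP and LL mice on this diet were 28 weeks old. Values of the heterozygotes (PL, n = 8) and of PP and LL mice given a GKA at 3 mg/kg (n = 10 each) are set beside them where they bear on a result. The sources used here give no litter, batch or time of day of tissue collection for single mice, so no value within batches could be given, and p-values measure the spread between these mice.

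GKRP holds glucokinase (GK) in the hepatocyte nucleus, where the enzyme is inactive, and releases it to the cytoplasm after a meal. GK there phosphorylates glucose, which feeds glycogen synthesis, glycolysis and lipid synthesis, and its product signals to the transcription factor ChREBP, whose targets include Txnip, Pklr and G6pc1.

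The substituted codon is shown because it is the only designed difference between the groups. In the reference mouse genome (GRCm39) codon 446 of the full-length coding transcript Gckr-202, which encodes 623 residues, is the last codon of exon 15 (exon 15 spans chromosome 5, 31466180 to 31466277, plus strand). The codon itself is at 31466275 to 31466277. The run below is chr5:31466215-31466277, with the proline codon in capitals.
Gckr: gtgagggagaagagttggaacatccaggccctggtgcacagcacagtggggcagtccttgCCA

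Total reads per liver were between 5.57 and 7.80 M, and PP and LL differed by less than their own spread (two-sided exact permutation p 0.82). The share of reads from mitochondrial DNA (9.87 ± 1.04% in PP and 10.3 ± 1.48% in LL) differed by less than that spread (two-sided exact permutation p 0.482). Hepatocyte markers summed to between 73380 and 120900 counts per mega reads (CPM, scaled by TMM), with Alb the highest. Of 12 lists of cell type markers, summed per mouse, 0 passed after adjustment (lowest adjusted p 0.348, two-sided exact permutation). Blood genes had the lowest unadjusted p (0.07, the same test), next to adipocyte genes (0.0746). They were at 286 to 719 CPM in PP and 393 to 1634 CPM in LL. All 5 tested blood genes had a log2 fold change above 0, and all 8 tested endothelial markers had one below 0. Over all genes these shares were 52.7% and 47.3%. In whole liver, fewer cells of a type and less RNA per cell cannot be told apart.

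Of 10537 genes tested with edgeR, 9 were DEGs (0.0854%; 6 higher, 0.0569%, and 3 lower, 0.0285%), with an adjusted p below 0.05 and a fold of at least 1.3 or at most 0.7, and 1248 (11.8%) had an unadjusted p below 0.05. The 6 higher genes concern signalling by G proteins (Rgs12 and Gna12), a mitochondrial carrier (Slc25a47), the thioredoxin-binding ChREBP target Txnip, and Tnks1bp1 and Crybg2. The 3 lower genes were Ppp1r3b, which targets protein phosphatase 1 to glycogen, Tmem41b, an ER membrane protein needed for autophagy and lipid mobilization, and the DnaJ co-chaperone Dnaja4. DESeq2, fitted to the same mice, called 109 of 11438 genes (0.953%), 59 higher and 50 lower, and these included all 9. The edgeR count was 0 in 14 of the 19 fits that left out 1 mouse, 67 when PP 6 was left out and 85 when LL 42 was.

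**Figure D1:**
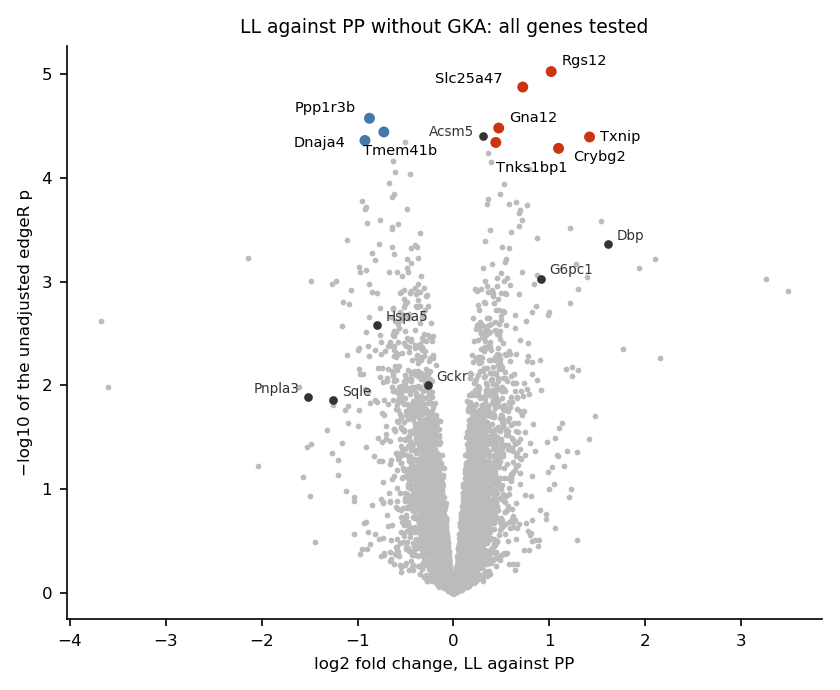
Each dot is 1 of the 10537 genes tested, with its log2 fold change (LL against PP, without GKA) on the x axis and the −log10 of its unadjusted edgeR p on the y axis. Red and blue dots are the 6 higher and 3 lower DEGs, and labelled black dots are other genes described in the text, which did not pass as DEGs.

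Txnip binds and inhibits thioredoxin and limits glucose uptake. It was between 17.6 and 71.8 CPM in PP (median 24.4) and between 38.2 and 157 CPM in LL (median 67.0). The groups overlapped through PP mouse 6 alone, since the next PP mouse was at 29.7 CPM. The log2 fold change was 1.42 (SE 0.27, edgeR adjusted p 0.048), and leaving out 1 mouse at a time kept it between 1.24 and 1.70. PL mice had a median of 40.7 CPM. In the mice given GKA the log2 fold change of Txnip was 1.17 (SE 0.27; edgeR adjusted p 0.0586), and the interaction of genotype with GKA had an unadjusted p of 0.538.

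The regulator of glycogen synthesis Ppp1r3b, which codes for the liver GL subunit of protein phosphatase 1, was between 138 and 306.5 CPM in PP (median 196) and between 60.9 and 150.1 CPM in LL (median 110.3). Of the 10 LL mice, 8 were below the lowest PP mouse. Ppp1r3b fell by 0.88 on the log2 scale (SE 0.16, edgeR adjusted p 0.048), the PL median was 85.8 CPM, and with GKA the log2 fold change was -0.68 (adjusted p 0.218). The coding transcript Ppp1r3b-202 held 59.4 ± 17.2% of its reads in PP (SD, n = 9) and 53.3 ± 29.6% in LL (SD, n = 10), and these shares were not tested.

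The promoters of Txnip and Ppp1r3b are shown because carbohydrate-responsive and clock factors both bind E-boxes, and 250 bases before the start site of the canonical transcript could be searched in GRCm39. The E-box CACGTG was in 830 of 10062 promoters of tested protein-coding genes (8.25%), and in 1 of the 9 DEGs, Ppp1r3b, which had it at 121 and 37 bases before the start. A pair of CACGNG 5 bases apart, sought on both strands, was in 7 of the 10062 (0.0696%), and Txnip was 1 of them, with its pair starting 79 bases before the start. Capitals mark these matches. The windows are chr3:96465017-96465266 for Txnip and chr8:35842624-35842873 for Ppp1r3b, both on the plus strand. Of 13 promoters of ChREBP-related genes, 1 held the pair (Txnip) and 3 held the single E-box. The 3 were Mlx, Arrdc4 and Fgf21, each with an unadjusted edgeR p of 0.05 or more. A match describes the letters and does not show binding.
Txnip: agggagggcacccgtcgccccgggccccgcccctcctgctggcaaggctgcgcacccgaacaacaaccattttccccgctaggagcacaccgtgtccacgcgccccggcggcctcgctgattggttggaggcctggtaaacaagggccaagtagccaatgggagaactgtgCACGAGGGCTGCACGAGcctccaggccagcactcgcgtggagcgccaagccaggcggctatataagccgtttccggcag
Ppp1r3b: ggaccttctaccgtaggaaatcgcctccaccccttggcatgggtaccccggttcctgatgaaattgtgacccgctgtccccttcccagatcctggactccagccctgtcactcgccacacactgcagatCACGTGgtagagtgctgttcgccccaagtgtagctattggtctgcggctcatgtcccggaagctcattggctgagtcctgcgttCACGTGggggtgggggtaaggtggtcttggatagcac

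Slc25a47, a liver-enriched mitochondrial carrier, was between 286 and 564 CPM in PP (median 410.2) and between 412 and 801 CPM in LL (median 689). LL mouse 44 was the only LL mouse below the highest PP mouse. The log2 fold change was 0.72 (SE 0.13), and with GKA it was 0.69 (edgeR adjusted p 0.0891). Of 35 tested mitochondrial carriers, 4 were higher at an unadjusted p below 0.05 (6.15% of all genes tested) and 0 lower (5.69% of all genes). The dicarboxylate carrier Slc25a10 was among the 4, at a log2 fold change of 0.48 (SE 0.13, edgeR unadjusted p 0.00187).

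Rgs12 shortens signalling by some G protein alpha subunits, and Gna12 encodes an alpha subunit. Whether Rgs12 acts on that subunit was not tested. Rgs12 was low, with 8 to 35 reads per liver, and was between 1.27 and 2.74 CPM in PP (median 1.44) and between 1.73 and 3.99 CPM in LL (median 3.52). In LL, 7 mice were above the highest PP mouse (log2 fold change 1.02, SE 0.18). With an offset for the transcript lengths estimated in each liver it was 0.43 (edgeR adjusted p 0.727). With GKA the log2 fold change of Rgs12 was 0.38 (edgeR unadjusted p 0.0675), and the interaction had an unadjusted p of 0.0181 and an adjusted p of 0.867. Gna12 was between 55.5 and 81.6 CPM in PP (median 68.5) and between 76.0 and 113 CPM in LL (median 95.0), with 8 LL mice above all PP mice and a log2 fold change of 0.47 (SE 0.09). Among 18 tested genes of G protein signalling, 5 were higher at an unadjusted p below 0.05, including these 2, and 0 lower (6.15% and 5.69% of all genes), with a list median of 0.09 against 0.01 over all genes. The other 3 were Gpr146, a liver receptor tied to cholesterol secretion (log2 fold change 0.69, SE 0.15), Rgs16 (1.24, SE 0.41) and the adenylate cyclase Adcy6 (0.58, SE 0.18). With a transcript length offset the log2 fold change of Adcy6 was -1.96. This list, like the others, was chosen with earlier results of these data known, so its counts are no independent evidence of a direction.

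Tnks1bp1, which binds the telomere-associated polymerase tankyrase, was between 14.8 and 21.9 CPM in PP (median 16.8) and between 19.6 and 28.6 CPM in LL (median 24.2). Crybg2, a beta/gamma crystallin domain protein, was between 1.19 and 3.57 CPM in PP (median 2.95) and between 3.21 and 8.95 CPM in LL (median 5.37). The numbers of LL mice above every PP mouse were 8 for Tnks1bp1 and 9 for Crybg2. The log2 fold changes were 0.44 (SE 0.09) and 1.10 (SE 0.22), and with GKA 0.33 and 1.04, each with an edgeR adjusted p of 0.0586 there. With the transcript length offset Crybg2 had a log2 fold change of 0.36 (edgeR adjusted p 0.845). It rested on 8 to 59 reads per liver, and its exons overlap those of Cd52 on the other strand, from which these reads were not told apart.

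Tmem41b was between 13.7 and 23.7 CPM in PP (median 19.2) and between 7.14 and 15.0 CPM in LL (median 11.6). Dnaja4 rested on 7 to 37 reads per liver and was between 3.01 and 5.33 CPM in PP (median 4.28) and between 1.12 and 3.39 CPM in LL (median 1.99). Of the LL mice, 8 were below every PP mouse for Tmem41b and 9 for Dnaja4. Tmem41b fell by 0.73 on the log2 scale (SE 0.14) and Dnaja4 by 0.92 (SE 0.18). With the transcript length offset the log2 fold change of Tmem41b was -0.42 and that of Dnaja4 -0.29 (edgeR adjusted p 0.629 and 0.708). Exons of Dnaja4 overlap those of Skic8 on the other strand. With GKA the log2 fold change of Tmem41b was -0.38 (edgeR unadjusted p 0.00239) and that of Dnaja4 -0.40 (0.0483).

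**Figure D2:**
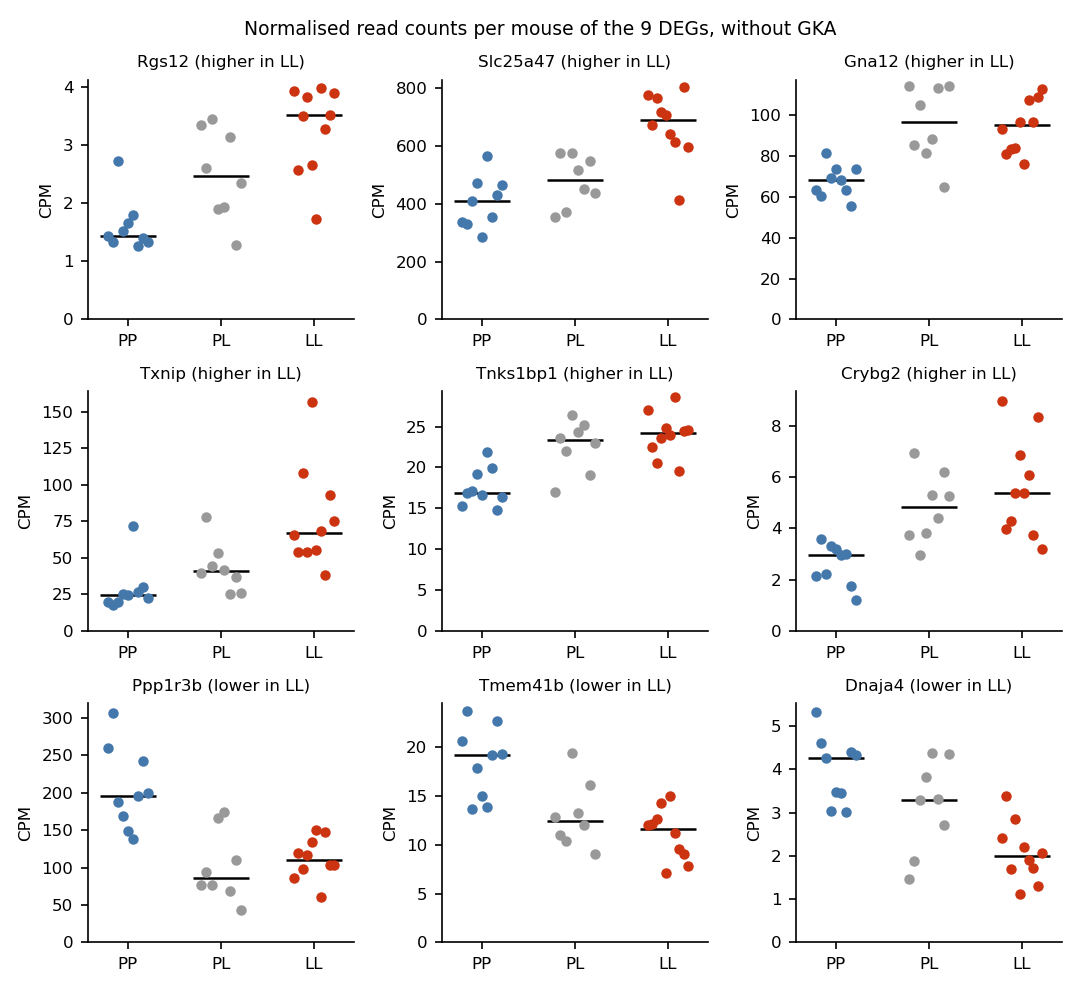
Each panel gives the normalised read count (CPM, y axis from 0) of 1 DEG in each mouse without GKA, by genotype (PP, n = 9; PL, n = 8; LL, n = 10), with a black line at the median. Single mice that lie with the other genotype are visible, such as the PP mouse at 71.8 CPM for Txnip and the LL mouse at 412 CPM for Slc25a47.

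Groups that did not overlap at all were rare, with 2 of the 10537 genes (0.019%). Acsm5, a mitochondrial medium-chain acyl-CoA synthetase, was 1 of them, at 62.8 to 76.8 CPM in PP (median 70.3) and 78.6 to 97.6 CPM in LL (median 88.9). Its log2 fold change of 0.31 (SE 0.06, edgeR adjusted p 0.048) was too small for a DEG. With GKA the log2 fold change of Acsm5 was 0.03 (edgeR unadjusted p 0.785; interaction unadjusted p 0.0178, adjusted p above 0.05 as for all genes). Rbm10, an RNA-binding splicing regulator on the X chromosome, was the other gene with an adjusted p of 0.048 but too small a fold, with a log2 fold change of -0.51 (SE 0.10).

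Of the next genes by p, none passed the adjusted threshold with edgeR. The higher ones were led by Slc2a2, the main glucose transporter of hepatocytes (Glut2), at 201 to 263 CPM in PP (median 229) and 251 to 340.2 CPM in LL (median 293). The log2 fold change was 0.36 (SE 0.07, edgeR adjusted p 0.0507), and 9 LL mice were above every PP mouse. Hyal2 (0.39), Rnf152 (0.78), Bnip3 (0.53), Ldb1 (0.49), Cenpb (0.36), Mycl (0.66) and Brap (0.36) followed, with edgeR adjusted p values between 0.0534 and 0.0675. Bnip3 marks mitochondria for autophagy, and Rnf152 is a lysosomal ubiquitin ligase that restrains mTORC1.

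The lower ones were led by Slc19a2, a thiamine transporter, at 43.6 to 99.6 CPM in PP (median 67.4) and 35.8 to 58.3 CPM in LL (median 43.9), with a log2 fold change of -0.63 (SE 0.13, edgeR adjusted p 0.0534). Usp53 (-0.61), Pid1 (-0.46), Ncoa5 (-0.67), P3h1 (-0.62), Ggct (-0.64), Nup35 (-0.96), the ER stress transducer Creb3l2 (-0.91), Nck1 (-0.49), the transferrin receptor Tfrc (-0.92) and Shld2 (-0.77) followed, with edgeR adjusted p values up to 0.0765. The log2 fold change of Hyal2 was -0.64 with a transcript length offset, the reverse of its direction. With DESeq2, all 19 genes named here from Slc2a2 to Shld2 had an adjusted p below 0.05.

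The GKRP mRNA itself was not a DEG. Gckr was between 151 and 230.3 CPM in PP (median 172) and between 131 and 193 CPM in LL (median 144), with a log2 fold change of -0.26 (SE 0.09), an edgeR unadjusted p of 0.00987 and an adjusted p of 0.238. Of the LL mice, 6 were below every PP mouse, and with GKA the log2 fold change of Gckr was -0.15 (unadjusted p 0.0967).

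Genes within 10 Mb of Gckr were compared with the rest of chromosome 5. Within 10 Mb of Gckr, 122 genes were tested, of which 10 (8.2%) had an unadjusted p below 0.05, 5 in each direction, against 11.8% over all genes and 14.2% of the 564 genes on the rest of chromosome 5. The list median was 0.01. Rgs12 and Insig1 lie within this window.

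Genes of glucose output were at log2 fold changes above 0 in 9 of 9 tested cases (52.7% of all genes, with 47.3% below 0), with a median of 0.17, and 2 of them were higher at an unadjusted p below 0.05 (6.15% of all genes). With GKA 4 of the 9 were above 0 and 5 below, at a median of -0.01. Without PP mouse 5 the median of the untreated mice was 0.08. With a component of clock genes as covariate the median was 0.09, with 3 higher and 2 lower (7.63% and 7.74% of all genes). G6pc1, the catalytic subunit of glucose-6-phosphatase, was between 106 and 427 CPM in PP (median 220.4) and between 254 and 628 CPM in LL (median 399). For G6pc1 the log2 fold change was 0.92 (SE 0.24, edgeR unadjusted p 0.000935, adjusted p 0.112), against 1.08 with GKA (adjusted p 0.130). The PL median of G6pc1 was 154 CPM, below that of PP. Pck1, the cytosolic enzyme of gluconeogenesis, had a log2 fold change of 0.07 (SE 0.26).

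Of 13 ChREBP-related genes, 4 were higher at an unadjusted p below 0.05 (Txnip, G6pc1, Klf10 and Rgs16) and 0 lower (6.15% and 5.69% of all genes). The list median was 0.14, with 7 of the 13 above 0 (52.7% of all genes). With the clock component as covariate 4 were higher and 3 lower (7.63% and 7.74% of all genes). Klf10, a transcription factor induced by glucose, was between 8.61 and 24.4 CPM in PP (median 18.3) and between 18.1 and 44.0 CPM in LL (median 28.4), with a log2 fold change of 0.87 (SE 0.21, edgeR adjusted p 0.0869). With GKA Klf10 had a log2 fold change of 1.11 and an edgeR adjusted p of 0.023. Pklr, liver pyruvate kinase, had -0.09 (SE 0.17), and Mlxipl, which encodes ChREBP itself, -0.24 (SE 0.18). With PP mouse 7 kept, the list median was -0.06, and without LL mouse 38 it was 0.07.

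Of 17 genes that the study linked to GK overexpression in hepatocytes, 5 were higher at an unadjusted p below 0.05 (6.15% of all genes) and 2 lower (Slc17a4 and Rnf144b; 5.69% of all genes), with a median of 0.23. The list comes from the study and may have been drawn up with these livers in view, so its counts are no independent evidence of a direction. The 5 were Slc25a47, Slc2a2, Klf10, G6pc1 and Rgs16. Angptl8, a liver-secreted inhibitor of lipoprotein lipase, had a log2 fold change of 0.62 (SE 0.32, edgeR unadjusted p 0.0688).

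Among 20 genes of glycogen metabolism, 5 were higher and 2 lower at an unadjusted p below 0.05 (6.15% and 5.69% of all genes), and the list median was 0.06. Beside Ppp1r3b, which fell, liver glycogen synthase Gys2 was between 93.3 and 160 CPM in PP (median 125) and between 116 and 270.4 CPM in LL (median 165). Its log2 fold change was 0.52 (SE 0.16, edgeR unadjusted p 0.00386), but -0.43 with a transcript length offset and -0.04 with the clock component as covariate. Another glycogen-targeting subunit, Ppp1r3e, had a log2 fold change of 0.66 (SE 0.21), Gsk3b, the kinase that inhibits glycogen synthase, -0.31 (SE 0.12), and liver glycogen phosphorylase Pygl -0.07 (SE 0.08).

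**Figure D3:**
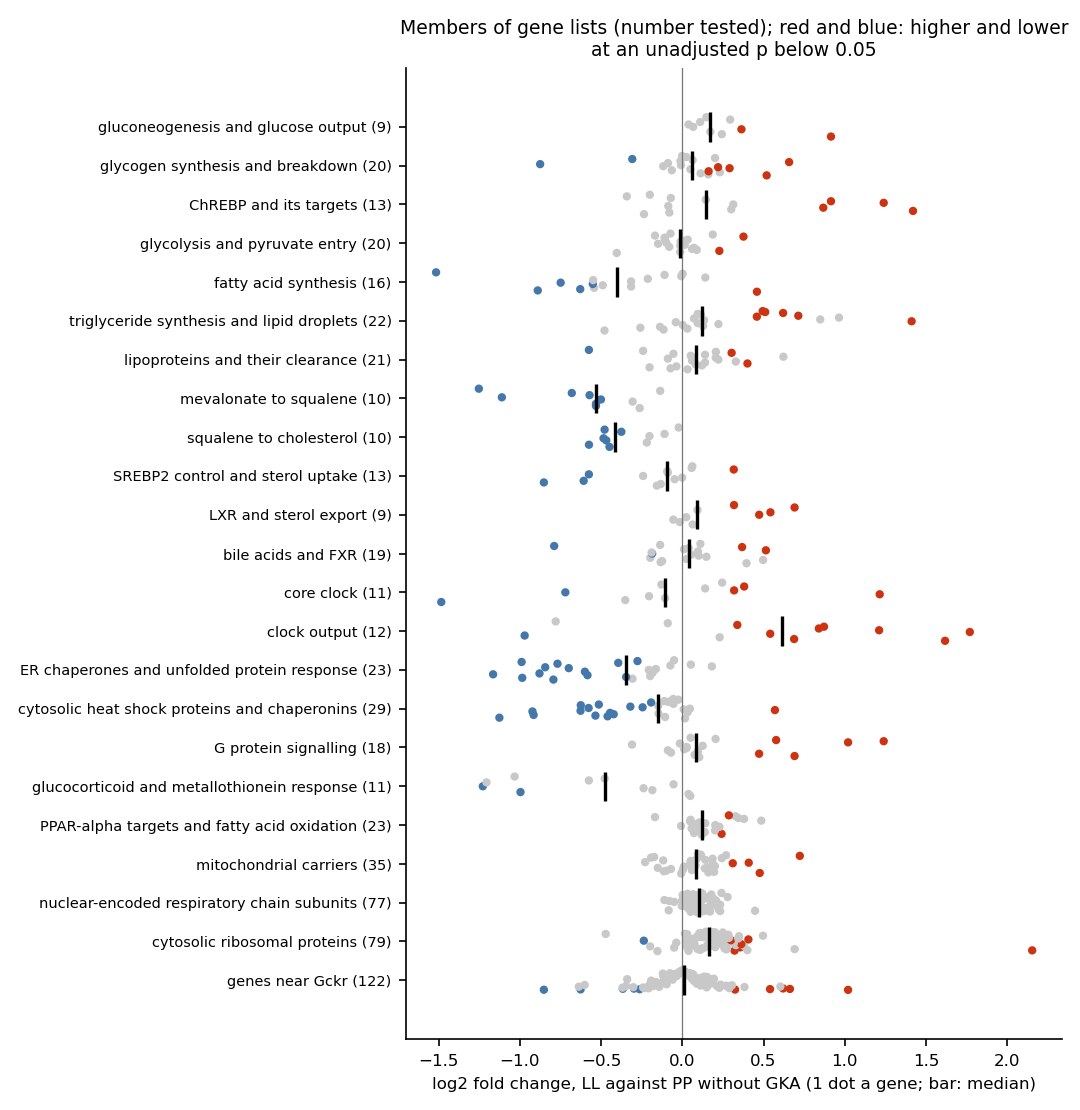
Each dot is the log2 fold change (x axis, LL against PP without GKA) of 1 tested member of the list named on the y axis, with the number tested in brackets and a black bar at the list median. Red and blue dots passed an unadjusted p below 0.05 in the higher and lower direction. Both cholesterol lists lie wholly below 0, whereas the genes within 10 Mb of Gckr are spread around it.

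Cholesterol synthesis was described in its 2 stages. Of 10 genes from mevalonate synthesis to squalene epoxidation, 7 were lower at an unadjusted p below 0.05 and 0 higher (5.69% and 6.15% of all genes), with a median of -0.53, and of 10 genes of the later steps to cholesterol 6 were lower and 0 higher, with a median of -0.41. None of the 20 was a DEG by edgeR. Per mouse, the median over the genes of the second stage was below the lowest PP mouse in 6 of 10 LL mice, and LL mouse 42 lay above the PP mean. With GKA the 2 medians were -0.27 and -0.19, and 5 and 2 genes were lower (5.11% of all genes in those mice). With the clock component as covariate the medians were -0.39 and -0.24, with 2 lower in each stage and 1 higher in the second (7.74% and 7.63% of all genes). The PL medians did not lie between those of PP and LL, since the list value per mouse on the log2 scale against the PP mean had a median of 0.10 in PL, -0.11 in PP and -0.46 in LL for the first stage, and of 0.21, -0.11 and -0.39 for the second.

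Sqle, squalene epoxidase, was between 0.72 and 11.7 CPM in PP (median 4.28) and between 0.42 and 6.15 CPM in LL (median 1.71), and its log2 fold change was -1.25 (SE 0.47). Mvd, mevalonate diphosphate decarboxylase, was between 4.45 and 19.2 CPM in PP (median 9.74) and between 0.917 and 11.5 CPM in LL (median 3.33), with a log2 fold change of -1.11 (SE 0.36). Fdps, farnesyl diphosphate synthase, had -0.68 (SE 0.21) and Idi1 -0.57 (SE 0.19). In the second stage, Msmo1 (-0.47, SE 0.13), Cyp51 (-0.57, SE 0.17), Dhcr7 (-0.48, SE 0.16) and Lss (-0.45, SE 0.20) were lower at an unadjusted p below 0.05.

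The mRNAs of Insig1 and Insig2, whose proteins retain the SREBP precursors in the ER, were also lower at that threshold. Insig1 was between 181 and 363 CPM in PP (median 237) and between 69.9 and 256 CPM in LL (median 99.7), and 7 LL mice were below every PP mouse. Its log2 fold change was -0.85 (SE 0.23, edgeR adjusted p 0.112). In the mice given GKA Insig1 was a DEG, at -1.0 (edgeR adjusted p 0.00378), and the interaction had an unadjusted p of 0.598. Insig2 had a log2 fold change of -0.61 (SE 0.18, adjusted p 0.142), and -0.19 with GKA (unadjusted p 0.392). Srebf2, which encodes the transcription factor that drives cholesterol synthesis, had -0.16 (SE 0.10, unadjusted p 0.114).

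Of 9 genes of the sterol-sensing receptor LXR and of sterol export, 4 were higher at an unadjusted p below 0.05 and 0 lower (6.15% and 5.69% of all genes), with a median of 0.09. With GKA 0 of the 9 passed in either direction, at a median of 0.00. Abcg8 was between 49.2 and 76.1 CPM in PP (median 65.4) and between 51.2 and 124 CPM in LL (median 92.4), with a log2 fold change of 0.54 (SE 0.14, edgeR adjusted p 0.104). Its partner Abcg5, with which it exports sterols into bile, had 0.47 (SE 0.15), and exons of the 2 genes overlap on opposite strands. Gpr146 was between 26.9 and 59.5 CPM in PP (median 36.7) and between 42.0 and 83.5 CPM in LL (median 64.2). With GKA the log2 fold changes of Abcg8, Abcg5 and Gpr146 were 0.27, -0.02 and 0.09, each with an unadjusted p of at least 0.223, and the interaction for Gpr146 had an unadjusted p of 0.0188.

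Bile acid genes held 2 higher and 2 lower members among 19 tested (6.15% and 5.69% of all genes), with a median of 0.04. The bile acid receptor FXR, Nr1h4, was higher (log2 fold change 0.37, SE 0.11, edgeR unadjusted p 0.00263), and with GKA it was a DEG (0.47, edgeR adjusted p 0.0401). Nr0b2, the repressor SHP that FXR induces, was lower (-0.79, SE 0.26, edgeR unadjusted p 0.00686). Cyp7a1, the rate-limiting enzyme of bile acid synthesis, was low and variable, at 1.64 to 20.9 CPM in PP and 0.781 to 17.3 CPM in LL, with a log2 fold change of 0.40 (SE 0.47).

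Fatty acid synthesis genes had a median of -0.40, with 5 of 16 lower and 1 higher at an unadjusted p below 0.05 (5.69% and 6.15% of all genes). With the clock component as covariate the median was -0.14, with 4 lower and 0 higher (7.74% and 7.63% of all genes). With GKA it was -0.43, with 5 lower and 0 higher (5.11% and 5.27% of all genes in those mice). Acly, which makes cytosolic acetyl-CoA, was between 248 and 1459 CPM in PP (median 499) and between 165 and 652 CPM in LL (median 289.8), with a log2 fold change of -0.89 (SE 0.32). Pnpla3 (-1.52, SE 0.56), Acss2 (-0.63, SE 0.23), Elovl6 (-0.75, SE 0.29) and Elovl5 (-0.55, SE 0.20) were the others below. Fasn, fatty acid synthase, had -0.49 (SE 0.36, edgeR unadjusted p 0.183). The 1 gene in the other direction was Srebf1, which encodes a transcription factor that drives this list, at 0.46 (SE 0.16). The PP range was wide, since the median over the list spanned -0.59 to 0.81 on the log2 scale against the PP mean.

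Triglyceride and lipid droplet genes had log2 fold changes above 0 in 17 of 22 cases (52.7% of all genes), with 6 higher and 0 lower at an unadjusted p below 0.05 (6.15% and 5.69%) and a median of 0.12. With GKA 11 were above 0 and 11 below, at a median of 0.04. With the clock component as covariate 2 were higher and 2 lower (7.63% and 7.74% of all genes). The lipases and droplet proteins led. Hormone-sensitive lipase, Lipe, was between 4.39 and 7.91 CPM in PP (median 6.36) and between 5.36 and 17.3 CPM in LL (median 10.3), with a log2 fold change of 0.71 (SE 0.18, edgeR adjusted p 0.109). Adipose triglyceride lipase, Pnpla2, had 0.46 (SE 0.14), its inhibitor G0s2 0.62 (SE 0.27), and Fitm2, which partitions triglyceride into droplets, 0.49 (SE 0.13). Of 21 lipoprotein genes 2 were higher and 1 lower (6.15% and 5.69% of all genes). The 2 were Apoa5 (0.40, SE 0.11), which was at -0.0063 with the transcript length offset, and the HDL receptor Scarb1 (0.30, SE 0.12).

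Of 23 ER chaperones and genes of the unfolded protein response, 13 were lower and 0 higher at an unadjusted p below 0.05 (5.69% lower over all genes), with a median of -0.35. None was a DEG by edgeR, and DESeq2 called 5. Hspa5, the main ER chaperone BiP, was between 449.9 and 1443 CPM in PP (median 1075) and between 300.5 and 908 CPM in LL (median 548). Its log2 fold change was -0.79 (SE 0.23, edgeR adjusted p 0.146). Herpud1, an adaptor of ER-associated degradation, was between 226 and 678 CPM in PP (median 381) and between 147 and 378 CPM in LL (median 197), with 7 LL mice below every PP mouse and a log2 fold change of -0.84 (SE 0.21). The co-chaperone Dnajb9 (-0.99, SE 0.25), Manf (-0.88, SE 0.23) and Creld2 (-1.17, SE 0.34) were also lower. Xbp1, whose spliced form drives many of these genes, had 0.18 (SE 0.15), and its splicing was not measured.

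With GKA the ER list had a median of -0.33 and 13 of 23 lower and 0 higher (5.11% and 5.27% of all genes in those mice), and Herpud1 was a DEG (-0.78, edgeR adjusted p 0.00658). PP mouse 6 was the lowest PP mouse, with a list value of -0.575 on the log2 scale against the PP mean. Without it 19 of the 23 were lower, whereas without PP mouse 1 there were 9. The shares over all genes in those fits are not given here. Without PP mouse 10 the median was -0.30, the nearest to 0 of the 19 fits. With the clock component as covariate the median was -0.17, with 4 lower and 1 higher (7.74% and 7.63% of all genes). Without the covariate, the integrated stress response held 1 lower and 0 higher genes of 9 (5.69% and 6.15% of all genes). That is 11.1% of the list in either direction, near the 11.8% of all genes. The lower gene was the transcription factor Ddit3 (CHOP), at -0.90 (SE 0.21, edgeR adjusted p 0.0775), while Atf4 had -0.05 (SE 0.09).

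Promoters of the ER list are shown for a known response element. The ER stress element, CCAAT and CCACG 9 bases apart, sought on both strands in the 250 bases before the start site, was in 15 of 10062 promoters (0.149%) and in 9 of the 23 of this list. Of these 9, 3 were lower at an unadjusted p below 0.05, and of the 14 without it 10 were. The promoters of Hspa5 (chr2:34661854-34662103, plus strand) and Creld2 (chr15:88703563-88703812, plus strand) are shown as examples, with the match in capitals. It lies on the plus strand in Hspa5 and on the minus strand in Creld2.
Hspa5: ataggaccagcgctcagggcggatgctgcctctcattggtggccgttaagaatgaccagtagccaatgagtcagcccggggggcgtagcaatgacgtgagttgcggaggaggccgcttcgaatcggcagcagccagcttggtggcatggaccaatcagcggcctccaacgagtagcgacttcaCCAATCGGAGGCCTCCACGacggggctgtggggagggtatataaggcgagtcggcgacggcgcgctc
Creld2: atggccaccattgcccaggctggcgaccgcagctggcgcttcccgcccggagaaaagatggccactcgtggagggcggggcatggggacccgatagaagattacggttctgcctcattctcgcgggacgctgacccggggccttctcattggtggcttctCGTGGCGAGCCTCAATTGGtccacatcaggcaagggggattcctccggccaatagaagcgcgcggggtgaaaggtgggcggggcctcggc

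Cytosolic heat shock proteins and chaperonins had 14 of 29 tested members lower and 1 higher at an unadjusted p below 0.05 (5.69% and 6.15% of all genes), with a median of -0.15, and Dnaja4 was the only DEG among them. Hspa8, the constitutive HSP70, was between 758 and 1475 CPM in PP (median 1172) and between 650.0 and 1316 CPM in LL (median 743). LL mouse 42 held that highest value, and the next LL mouse was at 776 CPM. The log2 fold change was -0.54 (SE 0.14, edgeR adjusted p 0.112). Hsph1 (-0.92, SE 0.23), Dnaja1 (-0.45, SE 0.12), Dnajb1 (-0.63, SE 0.18) and Bag3 (-0.63, SE 0.19), an HSP70 co-chaperone, were lower too. Without LL mouse 42 the list median was -0.21 with 16 lower, and the share over all genes in that fit is not given here. With the clock component as covariate the list median was -0.19, with 13 lower and 1 higher (7.74% and 7.63% of all genes). The PL mice lay low as well, with 6 of 8 below the lowest PP mouse in the median over the list, as were 6 of 10 LL mice.

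**Figure D4:**
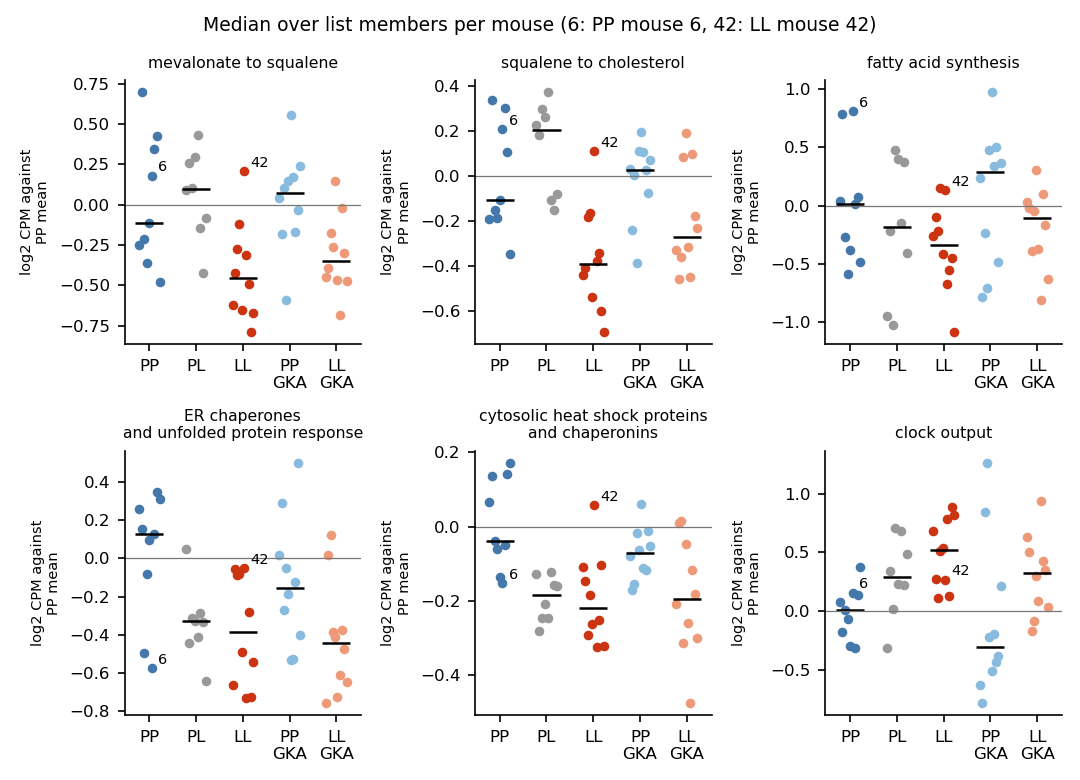
Each dot is 1 mouse, and the y axis is the median over the list's genes of log2 CPM minus the PP mean, for 6 gene lists in PP (n = 9), PL (n = 8), LL (n = 10) and, with GKA, PP and LL (n = 10 each), with black lines at group medians. PP mouse 6 and LL mouse 42 are numbered. LL mice lie lower for the cholesterol and heat shock lists and higher for clock output, with overlap in every panel.

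The circadian clock was examined because tissue collected at different times of day differs in many liver genes. Clock output genes were higher in LL in 8 of 12 tested cases and lower in 1 at an unadjusted p below 0.05 (6.15% and 5.69% of all genes), with a median of 0.61. Dbp, a clock-driven transcription factor, was between 7.22 and 31.2 CPM in PP (median 12.7) and between 13.9 and 97.7 CPM in LL (median 34.5), with a log2 fold change of 1.62 (SE 0.39, edgeR adjusted p 0.0896). Tef (0.69, SE 0.16), Por (0.84, SE 0.22) and the repressor Per3 (1.22, SE 0.28) were higher, and Nfil3 (-0.97, SE 0.25) and the activator Bmal1 (-1.48, SE 0.39) lower. With a transcript length offset the log2 fold change of Tef was -0.43. The core clock list held 3 higher and 2 lower of 11.

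A clock component, taken as principal component 1 of 16 clock genes in 55 mice (57.2% of their variance), was between -1.39 and 0.191 in PP and between -0.732 and 1.54 in LL. The difference was 1.09 (PP -0.60 ± 0.586, n = 9; LL 0.488 ± 0.792, n = 10; two-sided exact permutation p 0.0045), and 9 of the 10 LL values exceeded the mean of PP. PL mice had 0.556 ± 0.80, and with GKA PP had -0.881 ± 1.33 and LL 0.037 ± 0.731. Genotype and the time of collection cannot be told apart where no time is given. With the component as covariate, 0 genes were DEGs (smallest adjusted p 0.144) and 1620 (15.4%) had an unadjusted p below 0.05. In that fit the 9 DEGs all kept their direction, with log2 fold changes of 1.01 for Txnip, -0.60 for Ppp1r3b, 0.48 for Slc25a47 and 0.82 for Rgs12. These genes had been picked by p in the same mice, so keeping their direction was largely built in and is no independent evidence. The share of all genes that kept direction is not given here. Dbp, Tef, Hlf and Nfil3 are members of both the component and the clock output list. A fall of that list toward 0 in this fit was therefore partly built in. Genes of the core clock list are in the component as well.

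**Figure D5:**
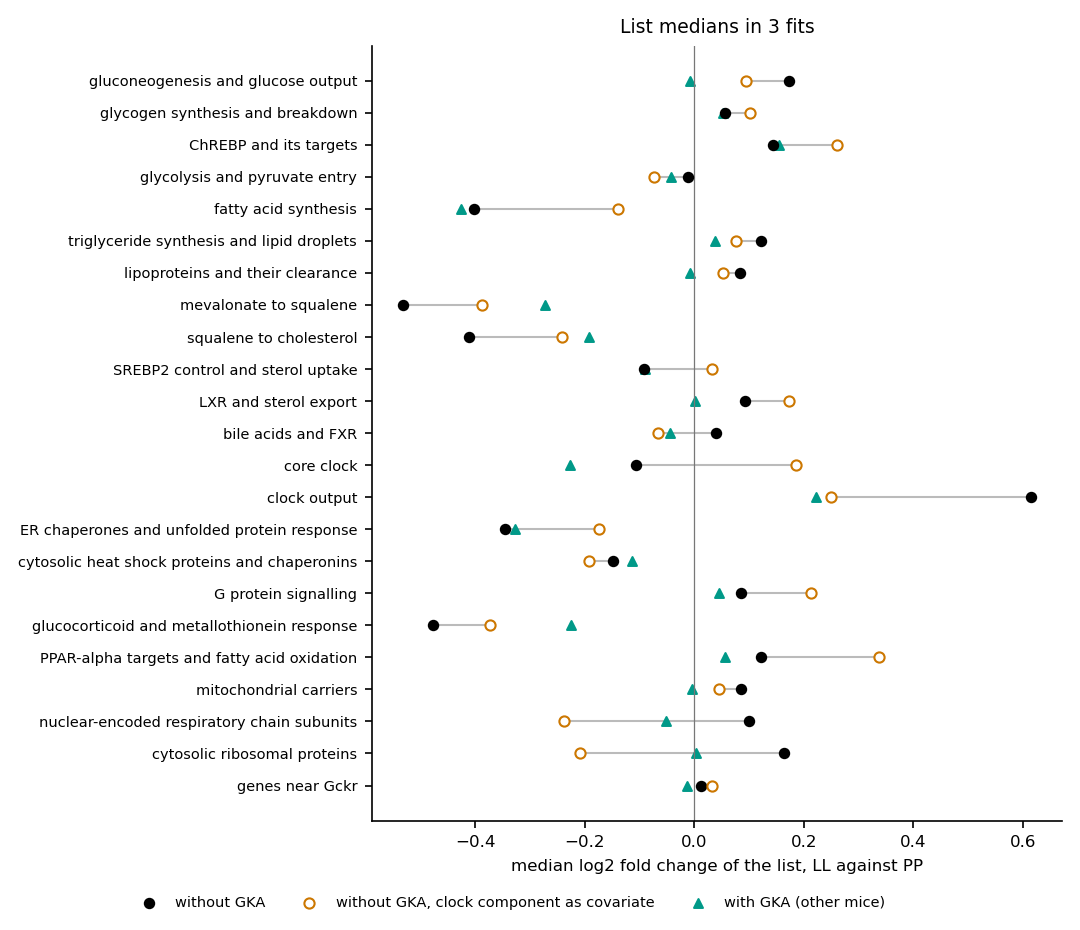
Each row is a gene list, and the x axis is the median log2 fold change of its tested members, LL against PP. Black dots are the fit without GKA, open dots the same mice with the clock component as covariate and triangles the mice with GKA. The median of clock output went from 0.61 to 0.25 with the covariate, and that of respiratory chain subunits from 0.10 to -0.24. Dbp, Tef, Hlf and Nfil3 belong to both clock output and the component, so the shift of that list was partly built in.

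The median log2 fold changes of respiratory chain subunits (0.10) and of ribosomal proteins (0.16) changed sign with that covariate and also with the transcript length offset, where they were -0.03 and -0.06. Of 77 respiratory chain genes, 71 had a log2 fold change above 0 (52.7% of all genes) but 0 passed an unadjusted p below 0.05. With the clock component as covariate 35 were lower (7.74% of all genes) and 0 higher. Of 79 ribosomal protein genes, 73 were above 0, with 6 higher and 1 lower at that threshold (6.15% and 5.69% of all genes). With the covariate 1 was higher and 16 lower (7.63% and 7.74% of all genes), at a median of -0.21. PPAR-alpha targets and genes of fatty acid oxidation were above 0 in 21 of 23 cases (52.7% of all genes). Of these genes 2 were higher (6.15% of all genes), Creb3l3 (0.29, SE 0.09) and Cpt1a (0.24, SE 0.11). With the covariate 11 were higher (7.63% of all genes), at a median of 0.34.

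The mice given GKA are another set of LL and PP livers. There edgeR called 25 of 10460 genes (0.239%) as DEGs, 19 higher (0.182%) and 6 lower (0.0574%). The interaction of genotype with GKA had 0 of 11193 genes at an adjusted p below 0.05, with edgeR, and 644 (5.75%) at an unadjusted p below 0.05, while DESeq2 called 2. The 9 DEGs of the untreated mice kept their direction in these mice, where 0 of the 9 passed as a DEG. Brap, a ubiquitin ligase that modulates Ras signalling, was a DEG in the mice with GKA (0.50, edgeR adjusted p 0.00378), and without GKA it was at 0.36 (adjusted p 0.0675; interaction unadjusted p 0.168).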

How the data were processed

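RNA was sequenced from 56 livers, and the 19 of this comparison were grouped by their labels. The authors quantified untrimmed reads, checked with FastQC, with Salmon 1.4.0 against GENCODE transcripts of GRCm39, and deposited 1 table per mouse with estimated counts, TPM and transcript lengths. Library strand was not given in the sources used here. The deposited TPM values were not tested. The deposited transcript lengths, which the authors' tool estimated per mouse, served for 1 alternative only.

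Estimated counts were summed per gene (137570 of 139225 transcripts matched, 52230 genes) and rounded, filtered on low counts by filterByExpr, scaled by TMM and tested with edgeR 4.0.16 (quasi-likelihood, R 4.3.3) with Benjamini-Hochberg adjustment. Levels are TMM-scaled CPM. Single values were compared by exact permutation tests, two-sided (Python 3.11.15, NumPy 2.4.6). Reads per liver in PP and LL were 5.57 to 7.80 M, which limits genes with few reads. No pair of mice within PP or LL agreed within sampling noise (lowest chi-square per degree of freedom 12.4 over 81 pairs).

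The members and gene lists were chosen with earlier results of these data known. Genes were named as the 15 higher and 15 lower genes with the smallest p, and as members of the lists. The alternatives were DESeq2 1.42.0, RLE size factors, no filter on low counts, PP mouse 7 kept, all 6 groups in 1 fit, a transcript length offset, the clock component as covariate, no fold threshold and leaving out each mouse. Leaving out each mouse for list medians was chosen after seeing the data. The scripts were tested on simulated data. Promoter and coding sequences were read from the GRCm39 genome with GENCODE annotation. Values of some single genes are not reported here.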

Additional observations from a re-analysis of the deposited data

Results flagged for a closer look

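Single mice were flagged by the gap to the next mouse against the group's range. Of 220 sets of values (each named gene in PP and in LL), 19 values from 18 genes were flagged. Chance alone marks about 1 in 20 sets, so part of the 19 can be chance. Among the DEGs, PP mouse 3 was highest for Rgs12 (2.74 CPM, next 1.80), LL mouse 44 lowest for Slc25a47 (412 CPM, next 596) and PP mouse 6 highest for Txnip (71.8 CPM, next 29.7). PP mouse 6 was also lowest for Pid1 (42.7 CPM), Nfil3 (4.87 CPM) and Elovl3 (80.9 CPM, next 191). LL mouse 42 was highest for Creb3l2 (25.2 CPM, next 12.9), Dnajb9 (65.1 CPM, next 30.9), Hspa8 (1316 CPM, next 776) and Dnajb1 (18.0 CPM, next 10.6).

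In other PP mice, Mycl was lowest in mouse 8 (3.17 CPM), Tfrc lowest in mouse 3 (8.38 CPM), Pdk2 lowest in mouse 1 (35.9 CPM) and Atf4 highest in mouse 2 (63.9 CPM). In other LL mice, Pck1 was highest in mouse 41 (2136 CPM, next 1160), where Atf4 was lowest (33.0 CPM). Ppp1r3e was lowest (0.688 CPM) and Cry2 highest (23.4 CPM) in LL mouse 46, and Cyp7a1 was lowest in LL mouse 39 (0.781 CPM).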

How the results depend on the processing

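The number of DEGs was 9 with edgeR, 109 with DESeq2, 0 with RLE size factors (smallest adjusted p 0.0511), 1 with no filter on low counts, 26 with PP mouse 7 kept, 65 with all 6 groups in the fit, 2 with a transcript length offset and 0 with the clock component as covariate (smallest adjusted p 0.144). Leaving out 1 mouse at a time gave 0 to 85. The count was 1 in the fit lacking PP 3, then 10 (lacking LL 44), 15 (lacking LL 38), 67 (lacking PP 6) and 85 (lacking LL 42). Of the 9 DEGs, 9 were also called by DESeq2 and with all 6 groups in the fit, 8 with PP mouse 7 kept, 1 (Slc25a47) with the transcript length offset, and 0 with RLE size factors, no filter or the clock component. Genes at an unadjusted p below 0.05 numbered 2050 with no filter. With GKA, DESeq2 called 89 genes, and 2 for the interaction. Each of the 9 DEGs passed in only 3 to 5 of the 19 fits that left out 1 mouse. Among the other 7 alternative fits, each passed in 2 to 4. Only these 9 genes could stop passing the threshold. Of 941 values of 110 named genes under the alternatives, 679 kept direction and side of the threshold. Another 173, all from the 9 DEGs, no longer passed it, 78 newly passed it and 11 reversed. With the transcript length offset these were Hyal2 (-0.64), Gys2 (-0.43), Apoa5 (-0.0063), Tef (-0.43), Atf4 (0.0946) and Adcy6 (-1.96), and with the clock component Mlxipl (0.0366), Gys2 (-0.0412), Fasn (0.025), Srebf2 (0.0327) and Xbp1 (-0.14). The cause was not tested. No paired analysis was possible because replicate numbers are unique across the groups compared.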

Other observations

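The genes given here had an unadjusted p below 0.05 with edgeR, and none of them was a DEG. Cdkn1a, the cell cycle inhibitor p21, was between 6.33 and 19.7 CPM in PP (median 14.0) and between 1.12 and 11.2 CPM in LL (median 3.98), with a log2 fold change of -1.23 (SE 0.32, edgeR adjusted p 0.112) and of -1.0 with GKA. Of the LL mice, 6 were below every PP mouse. Of 11 genes of the glucocorticoid and metallothionein response, 2 were lower (5.69% of all genes) and 0 higher, with a median of -0.48 that was -0.20 without PP mouse 3. Tsc22d3, a glucocorticoid-induced leucine zipper protein, had -1.0 (SE 0.31) and -0.88 with GKA.

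Cyp2a5, a drug-metabolizing cytochrome P450, was between 119 and 385.5 CPM in PP (median 218) and between 239 and 1246 CPM in LL (median 485). Its log2 fold change was 1.28 (SE 0.32, edgeR adjusted p 0.105), but 0.09 with the clock component as covariate and -0.17 with GKA (interaction unadjusted p 0.0042). Gstm1, a glutathione transferase, had 0.55 (SE 0.17), and -0.18 with GKA (interaction unadjusted p 0.0222). Elovl3, a clock-dependent fatty acid elongase, had -1.11 (SE 0.26), and -0.52 both with GKA and with the covariate.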
